A study of Homo sapiens with 12 samples.

Results

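The genes described here are the 10 matrix metalloproteinases (MMPs) and tissue inhibitors of metalloproteinases (TIMPs) MMP1, MMP2, MMP3, MMP9, MMP10, MMP12, MMP14, TIMP1, TIMP2 and TIMP3, out of 18278 genes named by a probe of their own on the array. These genes were listed by name, with earlier results of these data known. They had 12 single-gene probes. 11 of these probes, for 9 genes, carried values; the MMP12 probe was coded as missing on all 12 arrays. MMP2 and TIMP3 had 2 probes each, and the one with the higher mean over the 12 arrays represents the gene unless the second is named.

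MMPs are zinc-dependent endopeptidases, mostly secreted as inactive proenzymes, that cut collagens, proteoglycans and other matrix proteins, and TIMPs bind their active sites and block them. Stromal cells of the endometrium make much of the MMP activity of that tissue, where matrix breakdown accompanies menstruation and where MMPs have long been studied in endometriosis. TNFα and IL1β are inflammatory cytokines that act through NF-κB and AP-1 transcription factors, and in many fibroblast types MMP1 and MMP3 are known targets of that signalling.

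The cells were T-HESC, a human endometrial stromal line immortalised with telomerase, so all cultures share 1 origin. The study asked how gene expression in these cells responds to the cytokines, in view of endometriosis. 4 groups were compared: TNFα at 5 ng/ml with IL1β at 1 ng/ml, TNFα alone at 5 ng/ml, IL1β alone at 1 ng/ml, and vehicle, each for 48 h after 24 h of serum starvation in medium with puromycin. Every group had 3 arrays, 1 culture each from passages 13, 28 and 15, and the values of each group are given in that order of passages. The values are linear intensities that were scaled so that each array has a median near 1, an inference from the values, and tests used their log2. Intensities of different probes are not on a common scale, so no member's level is set against another member's. Where markers or listed genes are placed against the array median, or marker levels are summed, this is a rough description only.

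HSD11B1, a cortisol-producing reductase, and SOD2, the mitochondrial superoxide dismutase, rose in every cytokine group. Both were among the 3 probes called with IL1β, so their rise describes these same data and is not an independent check of the treatments. HSD11B1 was 7.12 ± 0.47 above vehicle with both cytokines, 5.73 ± 0.47 with TNFα and 4.87 ± 0.47 with IL1β (log2 difference ± SE; limma adjusted p = 0.000518, 0.00319 and 0.0227, n = 3 each). SOD2 was 4.77 ± 0.29, 3.96 ± 0.29 and 3.49 ± 0.29 above vehicle in the same order (limma adjusted p = 0.000518, 0.00319 and 0.0123). The IL1β calls were the least secure and passed in 7 of 16 alternatives for HSD11B1 and 9 of 16 for SOD2. 7 of 8 stromal markers were measured and all 7 lay above the array median. Of 8 leukocyte markers measured out of 10, CD68 alone lay above the median, and the defining marker PTPRC reached a log2 level of at most −1.84. Of 7 epithelial markers measured out of 8, 4 lay above the median, all of them keratins. Of 5 endothelial markers, 2 did, PECAM1 and TEK. The summed level of 7 epithelial markers, mainly KRT19, was 36.4 to 38.6 with both cytokines, 54.3 to 103.8 with TNFα, 23.4 to 60.7 with IL1β and 81.2 to 117.0 with vehicle; its part in the results was not tested.

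3 arrays lay apart from the rest on the first principal component of all probes, which carried 22.6% of the variance: TNFα passage 15 with a score of 68.7, IL1β passage 28 with 53.0 and vehicle passage 15 with 171.1. The other 9 scored −18.2 or less. All 3 arrays with both cytokines were among those 9, so each group other than that one had 1 array apart, and results that rest on those arrays are given with and without them.

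With both cytokines and with IL1β, 1 member, MMP3, differed from vehicle several-fold, and its level was highest in those groups. The 8 other measured members had smaller or scattered differences there, the largest being 1.39 on the second MMP2 probe with both cytokines (log2). With TNFα, MMP3 differed from vehicle by 1.15 and TIMP3 by −1.18 on the log2 scale. None of the 9 genes passed the test over all probes in any of 7 comparisons, the 6 pairwise ones and the interaction of the cytokines (limma, Benjamini-Hochberg adjusted p under 0.05). At an unadjusted p under 0.05 there were 1 of 9 genes with both cytokines against vehicle (MMP3), 0 with TNFα, 2 with IL1β (MMP3 and MMP10), 1 between both cytokines and TNFα (MMP3), and 0 in the other 3 comparisons. Over all 53671 probes tested, the adjusted test called 0.248% with both cytokines, 0.0466% with TNFα and 0.00559% with IL1β against vehicle, 0.00186% between both cytokines and TNFα, and 0% between both cytokines and IL1β, between TNFα and IL1β, and for the interaction. With the passage as a block, the calls among all probes were 88 in place of 133 with both cytokines, 13 in place of 25 with TNFα and 2 in place of 3 with IL1β. An unadjusted p under 0.05 was reached by 12.9% of all probes with both cytokines, 7.05% with TNFα and 9.67% with IL1β against vehicle, by 5.08% between both cytokines and TNFα, by 4.37% between both cytokines and IL1β, by 5.04% between TNFα and IL1β and by 3.59% for the interaction.

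Counted by arrays that do not overlap, with both cytokines 2 of 11 member probes had their lowest array above the highest vehicle array (background 7.02% of probes), 1 with TNFα (3.72%) and 1 with IL1β (3.53%). The highest array below the lowest vehicle array was found for 2 member probes with both cytokines (14.8%), 0 with TNFα (6.88%) and 2 with IL1β (9.96%). The median difference over the 9 genes was 0.07 with both cytokines, 0.03 with TNFα and 0.0045 with IL1β on the log2 scale, against −0.13, −0.05 and −0.13 over all probes. With 11 probes, these counts and medians say little about the members as a set. In bulk RNA, fewer cells expressing a gene and less RNA per cell cannot be told apart.

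**Figure D1:**
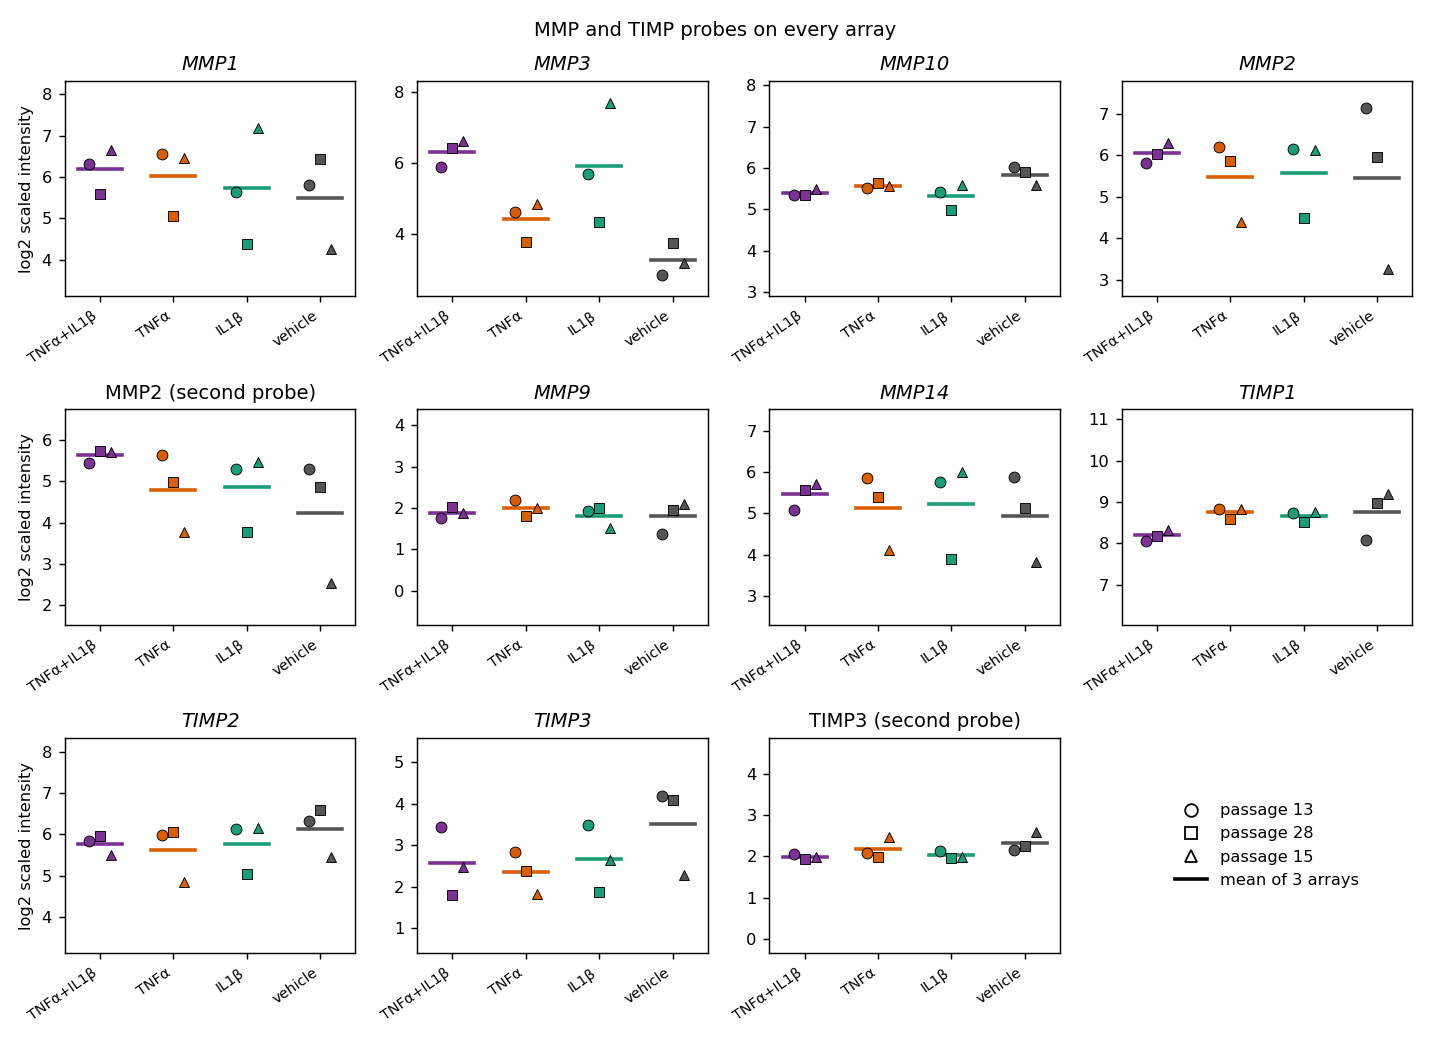
Log2 scaled intensity (y axis) of each MMP and TIMP probe on each array, by group along the x axis; symbols mark the passage and bars the mean of 3 arrays. All 3 arrays of each cytokine group lie above all 3 vehicle arrays for MMP3, while the groups overlap for MMP1, MMP9, MMP14 and TIMP2.

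MMP3 (stromelysin 1) degrades proteoglycans, laminin and fibronectin and activates the proenzyme of MMP1. Its intensity was 59.0, 86.3 and 97.9 with both cytokines, 24.9, 13.7 and 29.1 with TNFα, 51.7, 20.4 and 209 with IL1β and 7.28, 13.6 and 9.14 with vehicle (passages 13, 28 and 15). Every array of every cytokine group lay above every vehicle array, by a wide margin with both cytokines and by next to nothing for TNFα passage 28, whose log2 level was 3.78 against 3.76 for the highest vehicle array. Mean log2 levels were 6.31 ± 0.38 with both cytokines, 4.43 ± 0.57 with TNFα, 5.92 ± 1.69 with IL1β and 3.27 ± 0.46 with vehicle (SD, n = 3 each).

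With both cytokines MMP3 was 3.04 ± 0.70 above vehicle on the log2 scale (± SE), an 8.20-fold ratio of geometric means with a 95% interval of 2.80-fold to 24.0-fold. The unadjusted p was 0.00139 and the limma adjusted p 0.138, so the difference did not pass the test over all probes, and no alternative brought it past the threshold (adjusted p 0.0748 to 0.753). The difference itself was steady, at 3.02, 2.67 and 3.42 within passages 13, 28 and 15. It was 2.83 to 3.37 over 16 alternatives, though several, such as the passage block and the trended prior, cannot move a point estimate. With IL1β the difference was 2.64 ± 0.70 (unadjusted p = 0.00344, limma adjusted p = 0.427), and it was far less even, at 2.83, 0.59 and 4.51 in the same passages. The low passage was the IL1β array that lay apart; without the 3 such arrays the IL1β difference was 3.39 (limma adjusted p = 0.302), and without IL1β passage 15 it was 1.75. With TNFα the difference was 1.15 ± 0.70 (limma adjusted p = 0.805), at 1.78, 0.01 and 1.67 by passage.

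In order of mean, MMP3 was highest with both cytokines, then IL1β, TNFα and vehicle, and no neighbours in that order passed the test. Both cytokines differed from IL1β by 0.39 (95% interval −1.16 to 1.94; the sign turned in 3 of 16 alternatives), TNFα from IL1β by −1.49 (−3.04 to 0.06) and TNFα from vehicle by 1.15 (−0.40 to 2.70). Without the 3 arrays apart, 2 of which are a TNFα and an IL1β array, these were −0.39, −2.49 and 0.89, and without IL1β passage 15 TNFα differed from IL1β by −0.59. All 3 arrays with both cytokines lay above all 3 TNFα arrays, a difference of 1.88 ± 0.70 (unadjusted p = 0.0220, limma adjusted p = 0.955).

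**Figure D2:**
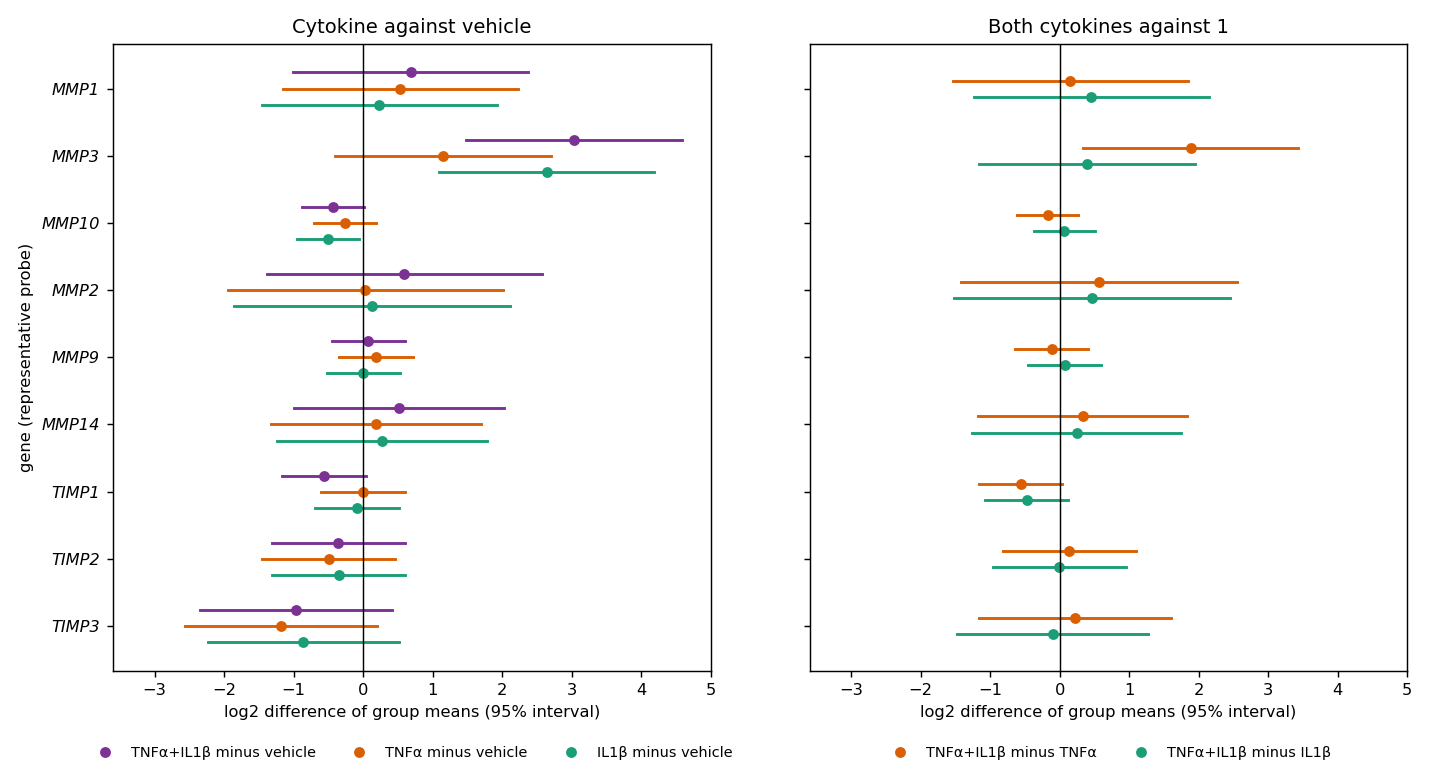
Log2 difference of group means (x axis) with 95% intervals from limma for the representative probe of 9 genes (y axis); left, each cytokine group minus vehicle, right, both cytokines minus each alone. The MMP3 interval with both cytokines minus vehicle runs from 1.49 to 4.59; intervals clear of 0 here are before adjustment over 53671 probes.

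MMP10 (stromelysin 2) is a close relative of MMP3 with similar substrates, and in the RefSeq annotation MMP10, MMP1, MMP3 and MMP12 are successive coding genes on chromosome 11. Its intensity was 40.9, 41.1 and 45.1 with both cytokines, 45.9, 50.0 and 47.6 with TNFα, 43.0, 31.7 and 48.3 with IL1β and 64.9, 59.5 and 48.6 with vehicle. The arrays with both cytokines and those with IL1β all lay below the vehicle arrays, the nearest pair being IL1β passage 15 and vehicle passage 15, while the TNFα arrays overlapped with vehicle. The difference from vehicle was −0.43 ± 0.20 with both cytokines, −0.26 ± 0.20 with TNFα and −0.50 ± 0.20 with IL1β (limma adjusted p = 0.395, 0.870 and 0.472). The sign held in 16 of 16 alternatives of each, though several of these cannot move a point estimate, and the size did not hold. With quantile normalization the differences were −0.13, −0.20 and −0.19, and the unadjusted limma p with IL1β was 0.387, against 0.0300 on the deposited scale. In the same cultures the point estimates for the stromelysins had opposite signs, MMP3 above and MMP10 below vehicle, with neither past the test. Against TNFα, MMP10 with both cytokines was lower on every array, by a difference of −0.17, which turned to 0.07 with quantile normalization.

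RefSeq (GRCh38.p14) promoter sequences were matched for 4 of the 10 members, MMP10, MMP14, TIMP1 and TIMP3. The 250 bases before the gene start were searched on both strands for the AP-1 motif TGANTCA and the TATA box TATAAA. An NF-κB consensus sequence, whose letters are not printed here, was searched in the same way. No matches overlapped. The windows are shown for MMP10 and TIMP1. On representative probes, these were the matched members whose arrays with both cytokines lay below every array of at least 1 other group. The second TIMP3 probe also lay below every vehicle array, and its window is not shown. Windows run 5′ to 3′ on the gene's strand with motif matches in capitals.
MMP10, chr11:102780629-102780878, minus strand: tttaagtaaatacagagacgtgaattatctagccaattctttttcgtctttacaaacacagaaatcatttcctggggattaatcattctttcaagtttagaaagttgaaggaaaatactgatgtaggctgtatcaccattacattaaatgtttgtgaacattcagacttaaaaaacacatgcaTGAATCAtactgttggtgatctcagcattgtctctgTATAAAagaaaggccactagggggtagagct
TIMP1, chrX:47582186-47582435, plus strand: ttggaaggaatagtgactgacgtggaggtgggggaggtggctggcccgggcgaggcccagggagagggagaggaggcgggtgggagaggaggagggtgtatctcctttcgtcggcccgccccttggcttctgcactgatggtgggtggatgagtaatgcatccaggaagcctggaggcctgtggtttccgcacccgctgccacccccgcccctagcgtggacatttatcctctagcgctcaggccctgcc
In MMP10 the capitals mark 1 AP-1 match, TGAATCA, from 67 to 61 bases before the start and 1 TATA box from 31 to 26 bases before it. In the windows of MMP14, TIMP1 and TIMP3 no exact match to any of the 3 motifs was found, and none of the 4 windows held the NF-κB motif. Sequences that differ from a motif by 1 letter were not counted, and the TIMP1 window holds such a sequence for AP-1. A lack of matches thus does not show that a site is absent. Among 35116 RefSeq promoters, 6.57% held the AP-1 motif in these 250 bases, 10.7% the TATA box and 9.96% the NF-κB motif. A match describes the letters of the window and does not show binding.

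MMP1 (interstitial collagenase), which cuts fibrillar collagen, lies between MMP10 and MMP3, and its groups did not separate. Its intensity was 79.5, 48.0 and 101 with both cytokines, 94.3, 33.6 and 88.3 with TNFα, 49.5, 20.7 and 146 with IL1β and 55.9, 86.2 and 19.0 with vehicle. The vehicle arrays alone spanned 19.0 to 86.2, and every cytokine group overlapped with them. Mean log2 differences from vehicle were 0.69 ± 0.76 with both cytokines, 0.54 ± 0.76 with TNFα and 0.23 ± 0.76 with IL1β (limma adjusted p = 0.752, 0.957 and 0.946). By passage the sign was not constant: with both cytokines the difference was 0.51 in passage 13, −0.84 in passage 28 and 2.40 in passage 15, and with IL1β −0.18, −2.06 and 2.94. Vehicle passage 15 and IL1β passage 28, both low for MMP1, are arrays that lay apart, and without the 3 such arrays the differences were 0.07, −0.30 and 0.29. The 95% interval with both cytokines reached up to 2.38, beyond a 4-fold difference, so it did not exclude a sizeable difference in MMP1.

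MMP12 (macrophage elastase) is expressed mainly by macrophages. Its single probe carried no value on any array, and no level is given for it.

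Of the gelatinases, which cut denatured collagen and basement membrane collagen, MMP2 had intensities of 56.6, 65.2 and 78.6 with both cytokines, 74.3, 58.5 and 20.8 with TNFα, 71.4, 22.2 and 69.7 with IL1β and 140.5, 62.6 and 9.58 with vehicle. Its second probe gave 43.5, 53.1 and 51.8 with both cytokines, 49.2, 31.3 and 13.7 with TNFα, 39.4, 13.7 and 44.2 with IL1β and 39.5, 28.9 and 5.78 with vehicle. On both probes the lowest array of each of the groups other than both cytokines was the array that lay apart. The representative probe differed from vehicle by 0.59 ± 0.89 with both cytokines, 0.03 ± 0.89 with TNFα and 0.13 ± 0.89 with IL1β (limma adjusted p = 0.829, 0.998 and 0.978); without the 3 arrays apart the values were −0.50, −0.51 and −0.41. The second probe lay above every vehicle array on all 3 arrays with both cytokines, a difference of 1.39 ± 0.74 (limma adjusted p = 0.461), but 0.54 without the 3 arrays apart (limma adjusted p = 0.242). With all arrays the 2 probes disagreed on whether the groups overlap. Without the 3 arrays apart their signs were opposite: the second probe then differed from vehicle by 0.54 with both cytokines, 0.22 with TNFα and 0.31 with IL1β. Over those 9 arrays the 2 probes correlated at r = 0.14, against 0.93 over all 12.

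MMP9, the other gelatinase, is known chiefly from leukocytes and invasive cells. It had intensities of 3.36, 4.07 and 3.66 with both cytokines, 4.59, 3.48 and 3.97 with TNFα, 3.79, 3.97 and 2.88 with IL1β and 2.57, 3.89 and 4.30 with vehicle, and all groups overlapped. Its log2 differences from vehicle were 0.07 ± 0.24, 0.19 ± 0.24 and 0.0045 ± 0.24 in that order (limma adjusted p = 0.933, 0.947 and 0.996). The interval reaching farthest from 0 was −0.34 to 0.71 with TNFα, so a 2-fold difference from vehicle lay outside all 3 unadjusted intervals. Without the 3 arrays apart the differences were 0.22, 0.34 and 0.06.

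MMP14 (membrane-type 1 MMP) sits on the cell surface and activates the proenzyme of MMP2 together with TIMP2. Its intensity was 34.2, 47.5 and 52.5 with both cytokines, 58.3, 42.2 and 17.4 with TNFα, 53.8, 14.9 and 64.4 with IL1β and 58.6, 35.1 and 14.1 with vehicle. Each group overlapped with the others, and again the lowest array of the TNFα, IL1β and vehicle groups was the one that lay apart. The log2 difference from vehicle was 0.52 ± 0.68 with both cytokines, 0.19 ± 0.68 with TNFα and 0.28 ± 0.68 with IL1β (limma adjusted p = 0.800, 0.991 and 0.925), and −0.04, 0.13 and 0.38 without the 3 arrays apart.

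Low values on the arrays apart were seen for MMP2, MMP14 and TIMP2. On the 3 arrays apart MMP2 had log2 levels of 3.26 to 4.48, against 5.82 to 7.13 on the other 9, and its second probe 2.53 to 3.78 against 4.85 to 5.73. MMP14 had 3.82 to 4.12 against 5.10 to 6.01, and TIMP2 4.86 to 5.45 against 5.51 to 6.60. These 4 of 11 member probes were thus lower on all 3 arrays apart than on all 9 others, which was also true of 14.7% of 26796 probes brighter than the median and of 9.17% of all probes with 12 values. The share of those brighter probes whose absolute correlation with the component over the 12 arrays was as high as the member's was 36.5% for TIMP2, 9.27% for MMP14, 3.21% for the second MMP2 probe and 0.0261% for the representative MMP2 probe. Such closeness to the component was thus common among bright probes for TIMP2, less so for MMP14 and the second MMP2 probe, and rare for the representative MMP2 probe. Over the 9 other arrays the correlation was −0.97 for the representative MMP2 probe and −0.09 for the second. The arrays were set apart by all probes together, members included, so this is a description and was not tested; 3 treatments and 2 passages are represented among them.

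**Figure D3:**
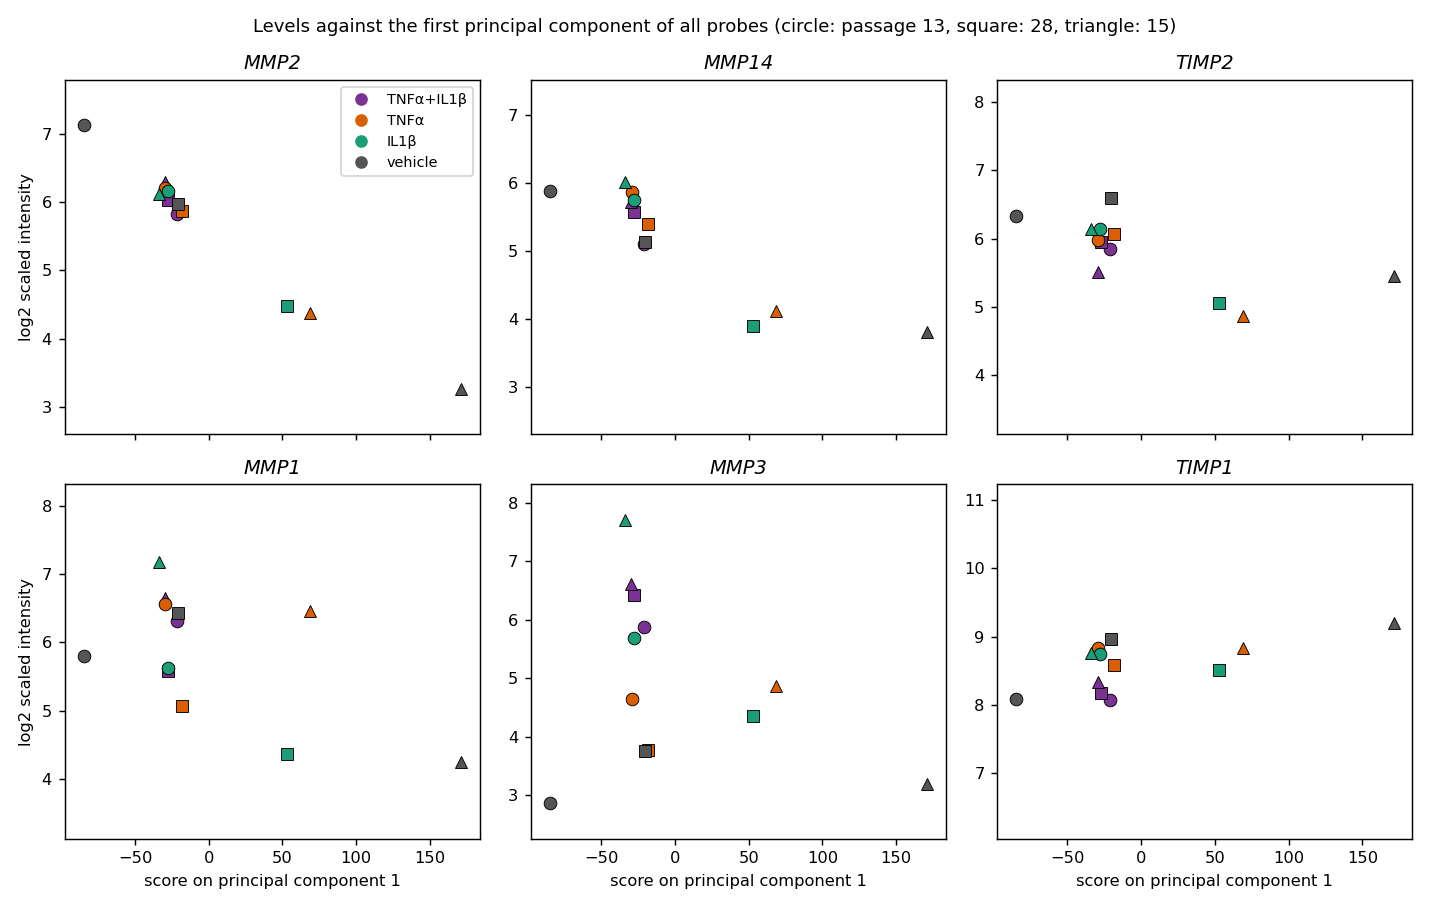
Log2 scaled intensity (y axis) of 6 members against the score of each array on the first principal component of all probes (x axis), coloured by group with symbols for the passage. MMP2, MMP14 and TIMP2 are lowest on the 3 arrays with scores of 53.0 or more; MMP3 and TIMP1 are not.

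TIMP1 inhibits most secreted MMPs. Its intensity was 268, 289 and 322 with both cytokines, 457, 384 and 457 with TNFα, 429, 363 and 432 with IL1β and 271, 502 and 589 with vehicle. The 3 arrays with both cytokines lay below every array with TNFα alone and every array with IL1β alone, and below 2 of 3 vehicle arrays; vehicle passage 13 lay among them. The log2 difference of both cytokines was −0.56 ± 0.27 against TNFα, −0.48 ± 0.27 against IL1β and −0.56 ± 0.27 against vehicle (limma adjusted p = 0.979, 1.000 and 0.419). TNFα alone differed from vehicle by 0.00086 and IL1β alone by −0.08, and the interaction was −0.48 (95% interval −1.33 to 0.37). Those single-cytokine means join opposite signs: by passage 13, 28 and 15 TNFα minus vehicle was 0.75, −0.39 and −0.37, and IL1β minus vehicle 0.66, −0.47 and −0.45. Without vehicle passage 13 they were −0.33 and −0.42, and without the 3 arrays apart 0.18 and 0.22. With quantile normalization the difference of both cytokines was −0.23 against TNFα, −0.40 against IL1β and −0.20 against vehicle. Without the 3 arrays apart the difference of both cytokines from vehicle was −0.34 and the interaction −0.74; vehicle passage 15, one of those left out, had the highest TIMP1 value of all 12.

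TIMP2 inhibits MMPs and also docks the MMP2 proenzyme on MMP14. It had intensities of 57.7, 61.8 and 45.6 with both cytokines, 63.0, 67.0 and 29.1 with TNFα, 70.3, 33.2 and 70.8 with IL1β and 80.3, 97.0 and 43.8 with vehicle, with overlap between all groups. The log2 difference from vehicle was −0.36 ± 0.43 with both cytokines, −0.49 ± 0.43 with TNFα and −0.35 ± 0.43 with IL1β (limma adjusted p = 0.778, 0.896 and 0.832). Without the 3 arrays apart these became −0.69, −0.44 and −0.32, and none of them passed.

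TIMP3 binds to the matrix and also inhibits ADAM and ADAMTS proteases. Its representative probe had intensities of 10.8, 3.45 and 5.51 with both cytokines, 7.12, 5.22 and 3.52 with TNFα, 11.3, 3.63 and 6.24 with IL1β and 18.3, 17.0 and 4.87 with vehicle. Vehicle passages 13 and 28 were the highest of all 12 arrays and vehicle passage 15, one of the arrays apart, lay inside the range of the cytokine arrays. The log2 difference from vehicle was −0.96 ± 0.62 with both cytokines, −1.18 ± 0.62 with TNFα and −0.86 ± 0.62 with IL1β (limma adjusted p = 0.549, 0.763 and 0.690), and without the 3 arrays apart −1.58, −1.53 and −1.07. The second probe had 4.14, 3.80 and 3.99 with both cytokines, 4.20, 3.95 and 5.57 with TNFα, 4.35, 3.89 and 3.98 with IL1β and 4.47, 4.72 and 6.05 with vehicle. On it all arrays with both cytokines or IL1β lay below all vehicle arrays, but the differences were only −0.34 ± 0.19 and −0.31 ± 0.19 (limma adjusted p = 0.489 and 0.636), and −0.21 and −0.14 without the 3 arrays apart. Its highest vehicle array was passage 15, the lowest on the other probe.

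Set against 1 cytokine alone, both cytokines gave every array higher than TNFα for 1 member probe (MMP3; background 6.5% of probes) and every array lower for 2 (MMP10 and TIMP1; 14.7%). Against IL1β, 0 member probes were higher on every array (8.09%) and 1 was lower (TIMP1; 6.7%). These comparisons share the arrays with both cytokines. The interaction, which asks whether the difference with both cytokines departs from the sum of the single ones on the log2 scale, ranged over the 9 genes from −0.76 for MMP3 to 1.08 for TIMP3, and every 95% interval held 0; without the 3 arrays apart the MMP3 value was −1.29.

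Genes that act with the members were taken by list. Of 16 other MMPs, all measured, 0 were called against vehicle in any cytokine group; the lowest p belonged to MMP15, a membrane-type MMP, at 1.32 ± 0.45 with both cytokines, 1.08 ± 0.45 with TNFα and 0.93 ± 0.45 with IL1β (limma adjusted p = 0.264, 0.667 and 0.542), on a probe below the array median. An unadjusted p under 0.05 was reached by 1, 1 and 0 of the 16 in that order, against 12.9%, 7.05% and 9.67% of all probes. With so few genes in a list, such counts say little about the list. Of 11 further MMP inhibitors and surface regulators measured out of 12, 0 were called, and an unadjusted p under 0.05 was reached by 0, 1 and 0; SPOCK3, a testican, was 0.96 ± 0.39 from vehicle with TNFα and 0.77 ± 0.39 with IL1β, and SPOCK2 0.39 ± 0.18 with both cytokines. Of 10 genes of the plasminogen system and proMMP activators measured out of 13, 0 were called and 3, 1 and 1 reached an unadjusted p under 0.05. The lowest p was that of SERPINF2, which encodes alpha-2-antiplasmin, at 1.40 ± 0.33, 1.42 ± 0.33 and 1.63 ± 0.33 (limma adjusted p = 0.152, 0.301 and 0.314), again on a probe below the array median.

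Among 21 ADAM and ADAMTS proteases measured out of 22, 1 was called lower and 0 higher with both cytokines and 0 were called with either cytokine alone. With both cytokines, TNFα and IL1β, 3, 1 and 1 reached an unadjusted p under 0.05, against 12.9%, 7.05% and 9.67% of all probes. The called gene was ADAMTS18, a secreted metalloprotease of the ADAMTS family. Its mean log2 level was −5.96 ± 0.78 with both cytokines (SD, n = 2). It was −2.89 ± 0.34 with TNFα, −3.22 ± 0.62 with IL1β and −2.78 ± 0.39 with vehicle (SD, n = 3 each). The third array with both cytokines had a value below 0, which was set to missing. ADAMTS18 fell by 3.18 ± 0.45 with both cytokines (limma adjusted p = 0.0332), on a probe far below the array median. The call passed in 2 of 12 alternatives (limma adjusted p 0.0340 to 0.459, and 0.0528 with the passage as a block). With 0.1 added to every intensity before the log the difference was −1.24. ADAMTS5, an aggrecanase, had 5.42 ± 0.21, 4.91 ± 0.69, 4.01 ± 0.57 and 3.32 ± 0.97 in the same order of groups, and its TNFα difference of 1.59 ± 0.51 was not called (limma adjusted p = 0.528). ADAMTS1, another matrix protease of the family, differed by −0.68 ± 0.29 with IL1β (limma adjusted p = 0.497).

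Of 23 matrix substrates measured out of 25, 0 were called and 1, 0 and 2 reached an unadjusted p under 0.05 with both cytokines, TNFα and IL1β. For this list and the next, the shares of all probes at that p were 12.9%, 7.05% and 9.67%. NID1, the basement membrane linker nidogen 1, differed by −0.48 ± 0.18 with both cytokines and −0.46 ± 0.18 with IL1β, and LUM, the proteoglycan lumican, by 0.36 ± 0.21 with TNFα (limma adjusted p = 0.307, 0.474 and 0.789). The list medians of the difference from vehicle were −0.13, −0.26 and −0.33, against −0.13, −0.05 and −0.13 over all probes. Of 18 AP-1, ETS and NF-κB transcription factors, 0 were called and 4, 2 and 2 reached an unadjusted p under 0.05, with list medians of 0.34, 0.22 and 0.23. ATF3, a stress-induced factor of the AP-1 kind, had log2 levels of 4.08 ± 0.03 with both cytokines, 3.05 ± 0.10 with TNFα, 3.80 ± 0.27 with IL1β and 2.61 ± 0.63 with vehicle (SD, n = 3 each). Its difference with both cytokines was 1.47 ± 0.29 (limma adjusted p = 0.0885, past the threshold in 4 of 16 alternatives) and with IL1β 1.20 ± 0.29 (limma adjusted p = 0.379). RELB, an NF-κB subunit, differed by 1.70 ± 0.42 with TNFα (limma adjusted p = 0.369).

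Likeness to the 3 measured members of the chromosome 11 group was taken as Pearson's r over the 12 arrays, among 11964 other genes with a probe above the median and a value on every array. These r describe arrays that share treatments, passages and the arrays apart, and carry no test. For MMP3 the 5 most alike were EMP2 (0.94), PDE7A (0.92), MIR3142HG (0.91), LGI3 (0.89) and PIWIL1 (0.89); their r is in parentheses, and over the 9 other arrays their r was 0.89 to 0.94. For MMP10 they were CTR9 (0.97), TCAF1 (0.94), TAF6 (0.93), TOPORS (0.92) and LRRC55 (0.91), with 0.86 to 0.97 over the 9. For MMP1 they were RAC2 (0.92), PDIA3 (0.92), C1QTNF2 (0.90), SMAD7 (0.89) and ACAA1 (0.89), with 0.74 to 0.90 over the 9. No gene was among the 5 of more than 1 of these members.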

How the data were processed

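Expression was measured in 12 cultures of T-HESC cells, 3 in each of 4 groups, each on its own single-colour CodeLink whole human genome array per the labels. The deposited values are linear intensities; for the authors' image analysis, background and normalization the sources used here give no steps, and scaling to the array median was inferred because the log2 medians of the 12 arrays lay within 0.0039 of each other. The deposited intensities were turned into log2; the missing code (0.716% of values) and values at or below 0 (1.10%) were set to missing. No detection calls come with the values.

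Of 54359 probes, 53671 had at least 2 values in every group and were tested with limma 3.58.1 (R 4.3.3): group means on all 12 arrays, 8 residual degrees of freedom, moderated two-sided tests and Benjamini-Hochberg adjustment over all probes, called at an adjusted p under 0.05. Figures used matplotlib 3.10.9. With 3 arrays a group, the smallest two-sided p of an exact permutation test is 0.1. The gene table names 1 gene for 23472 probes, several for 905 and none for 29982; of several single-gene probes the brightest on average represents its gene. From each list the called genes with the largest change were named or, with none called, the gene with the lowest p. The members, gene lists, alternatives and 3 arrays that lie apart were chosen with earlier results of these data known. Replicate numbers are tied to passages 13, 28 and 15 by the labels, but residuals of arrays with the same number correlated at a mean of only 0.0071 (−0.196 to 0.310, 18 pairs), so the fit has no block and the passage block is an alternative. On simulated data for both cytokines against vehicle (53671 probes, 50 changed at each size), 18% of 2-fold, 52% of 4-fold, 66% of 8-fold and 76% of 16-fold changes were recovered, with 4 false calls. The simulated noise was independent between probes and arrays, with no arrays apart, so these rates need not hold for the real data.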

Additional observations from a re-analysis of the deposited data

How the results depend on the processing

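No member was called in any comparison in 1053 recomputed tests over 22 alternatives: each of the 12 arrays left out, the 3 arrays apart left out, probes with all values or without dim ones, an offset of 0.1, centring on medians, quantiles made equal, array weights, a trended robust variance prior, groups fitted pair by pair, and passage as a block. In 107 of the 1053 the point estimate had the other sign, 35 of these among the 432 against vehicle, where leaving out vehicle passage 15 turned 9 of 27 and leaving out the 3 arrays apart 6 of 27. The 1053 include settings that leave a member's point estimate unchanged by design: the trended prior, the passage block, the pair-by-pair fits and the probe filters. With the replicate block (passage) the number of member probes called was 0 in each of the 7 comparisons, and MMP3 with both cytokines against vehicle had a limma adjusted p of 0.169.

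Calls among all probes moved more. With both cytokines against vehicle 133 probes were called, and 0 with array weights, 24 in a fit of those groups alone, 77 without the 3 arrays apart, 88 with the passage block, 219 with the trended prior and 233 without dim probes. Leaving out 1 array gave 27 to 137, with 62, 27 and 47 for the arrays with both cytokines in passages 13, 28 and 15. With TNFα the 25 calls became 0 with array weights, in a fit of the groups alone or without the 3 arrays apart, and 57 with the trended prior; leaving out 1 array gave 10 to 42. With IL1β the 3 calls ranged from 0 to 8. Array weights called 195 probes between both cytokines and TNFα, against 1, and 129 between both cytokines and IL1β, against 0. The cause was not tested. With 3 arrays a group, the number of arrays limits precision, and no detection calls show which low intensities exceed background.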
